A study of Mus musculus with 4 samples.

Results

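10 transcript rows were followed: the AP-1 genes Jund, Junb, Fos and Fosl2, the Egr genes Egr1, Egr2 and Egr3, the nuclear receptor gene Nr4a1, the proto-oncogene Myc, and Gm11175, an antisense row that lies opposite Jund. They were chosen by symbol, and all 10 were matched among the 50600 rows of the count tables, 9 as protein-coding genes. The tables come from the RNA of mouse Th2 (T helper 2) cells, a CD4 T cell subset defined by the transcription factor Gata3 and by interleukin-4 and interleukin-13. They were primary cells of strain C57BL/6NJ, made with a CD4 T cell differentiation protocol, in 4 biological replicates that form 1 group. The labels give no genetic change, 1 donor identifier for all 4 libraries, separate biosamples, no collected sex and an unknown age, and paths in the file headers place the libraries at 48 hours within a time course of Th1 and Th2 cells. Since no unstimulated, earlier or otherwise different group was included, induction of these genes could not be measured. What follows is their level, its spread over replicates, and how each stood against the row on its other strand.

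AP-1 is a dimer of basic leucine zipper proteins: Jun family proteins pair with each other or with Fos family proteins and bind promoters and enhancers, among them those of cytokine genes. In T cells a signal from the antigen receptor switches on Fos, Egr and Nr4a genes within minutes through kinase cascades, calcineurin and NFAT, without new protein synthesis, and most of these transcripts decay quickly. Myc follows and raises growth and metabolism, Egr2 and Egr3 restrain the response, and Nr4a1 is widely used as a reporter of receptor signalling.

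The libraries held 2271993, 2112190, 2204423 and 1785970 counts of read pairs in replicates 1 to 4. A row at 0 counts allows up to 3 counts, which is 1.32 to 1.68 CPM (the count scaled by the library total). Of the markers checked, 10 of 10 T cell genes and 5 of 6 Th2 genes had more than 3 counts in every library, while Il5 was at 0 in all 4. Il5 and 4 of the markers that passed overlap a gene on the other strand. Il5 lies opposite the antisense row Gm12214, which had 72, 95, 48 and 46 counts. Gata3 had 44, 35, 21 and 20 counts, against 2300, 2218, 2625 and 2048 for Gm13256 opposite it. Of 19 markers of other cell types 3 passed (Cd79a, Csf1r and Hdc) and 9 were at 0 in all libraries. Csf1r, a macrophage marker that overlaps a gene on the other strand, had 1409, 1363, 1457 and 1066 counts. Cd247, the T cell marker with the most counts, also overlaps such a gene and had 1360, 1364, 1278 and 972. The 8 T cell markers without an overlap had fewer, from Cd4 at 72, 59, 54 and 68 to Trbc1 at 6, 10, 6 and 6. Among all protein-coding genes 26.5% passed. In replicate 4 the ribosomal RNA row CT010467.1 took 15.9% of counts, against 3.25% to 5.02% in the other replicates. The 4 libraries may share an animal, so the spread given here is that between these libraries and may in part be technical. In bulk RNA, fewer expressing cells and less RNA per cell cannot be told apart.

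A count was assigned by the strand of the read, with featureCounts strand setting 1, and the labels used here do not say which strand the library kit keeps. Of protein-coding genes with an exon overlap on the other strand, 53.4% (2562 of 4801) had more than 3 counts in every library, against 19.0% (3215 of 16963) of those without an overlap. 3 of the 10 rows had such an overlap: Jund with Gm11175, Gm11175 with Jund, and Junb with Prdx2. The other 7 had none. A value below is therefore the count given to the named row, and it was not taken as the abundance of that gene's own mRNA. Which strand the counted reads came from was not tested.

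Jund encodes JunD, the Jun family member that most resting cells already hold. Its row covered 1668 bp in 1 exon at chr8:70698949-70700616 (mm10, plus strand), including a coding sequence of 1023 bp before the stop codon. Gm11175 was annotated on the minus strand at chr8:70699162-70700080, in 2 exon blocks of 877 bp in all. All 877 bp lay inside the Jund coding sequence, of which they covered 85.7%, and 0 bp lay in the untranslated parts. The first base of the longer Gm11175 transcript in GENCODE vM21 pairs with the last base before the Jund stop codon. The 2 sequences below are shown because they are the same 150 bp, chr8:70699931-70700080, read on each strand, so that the strand of a read alone decides which row it is counted in. Capitals mark the last Jund codon before the stop and the bases opposite it.
Jund, plus strand: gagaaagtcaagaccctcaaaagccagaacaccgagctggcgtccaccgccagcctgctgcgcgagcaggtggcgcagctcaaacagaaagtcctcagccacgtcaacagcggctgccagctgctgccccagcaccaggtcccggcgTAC
Gm11175, minus strand: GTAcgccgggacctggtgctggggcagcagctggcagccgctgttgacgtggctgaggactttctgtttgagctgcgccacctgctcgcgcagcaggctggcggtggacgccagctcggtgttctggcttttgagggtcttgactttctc
These 50 codons are the end of JunD and hold part of its leucine zipper, the segment through which AP-1 proteins pair. Between the 2 Gm11175 exon blocks lie 42 bp of Jund coding sequence, chr8:70699496-70699537, that belong to the Jund row alone.
Jund, plus strand, between the Gm11175 exon blocks: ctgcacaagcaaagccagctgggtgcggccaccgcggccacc

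Almost all counts at the Jund locus fell to the antisense row. Jund had 109, 73, 69 and 56 counts in replicates 1 to 4. Gm11175 had 22264, 18290, 20488 and 13040 counts. The groups of values did not come near each other. In counts, which are not scaled by the library totals, replicate 1 was the highest and replicate 4 the lowest for both rows. In CPM, Jund was lowest in replicate 3 (31.30) and nearly equal in replicate 4 (31.36), while Gm11175 was lowest in replicate 4.

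Per length, Jund had 65.3, 43.8, 41.4 and 33.6 counts per kb in replicates 1 to 4, against 25387, 20855, 23362 and 14869 counts per kb for Gm11175. The density of Jund was thus 0.257%, 0.210%, 0.177% and 0.226% of that of Gm11175. The log2 ratio of Jund over Gm11175 was -8.86 ± 0.225 (SD, n = 4), or 464-fold lower for Jund, and it was negative in 4 of 4 libraries (p = 0.13, exact two-sided sign-flip test; 0.13 after Benjamini-Hochberg adjustment over 2 ratios). The test has 16 sign patterns for 4 libraries, so 2 of 16, or 0.13, is its lower limit. Gm11175 ranked 8 of all rows by mean count and 5 by mean TPM, the count per exon length scaled to the same total in each library.

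Gm11175 held 0.980% of the counts in replicate 1 (95% Wilson interval 0.967 to 0.993), 0.866% in replicate 2 (0.854 to 0.879), 0.929% in replicate 3 (0.917 to 0.942) and 0.730% in replicate 4 (0.718 to 0.743). The intervals cover counting error only, and replicate 4 lay below the other 3. Among counts outside the ribosomal RNA rows CT010467.1 and Gm42418 the shares were 1.03%, 0.895%, 0.979% and 0.868%, with replicate 4 still the lowest but close to replicate 2.

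Among 154 pairs in which at least 90% of a row's exons lay inside a protein-coding gene of the opposite strand and the pair averaged at least 100 counts, Gm11175 had the second-highest mean count of the inner rows. The median over libraries of the density of Jund was 0.218% of that of Gm11175. Over the 148 pairs with inner counts in every library the median was 0.167%, and 63 pairs had a higher value than Jund. The Jund locus was therefore among the most counted of these pairs and near their middle in the balance of the strands.

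**Figure D1:**
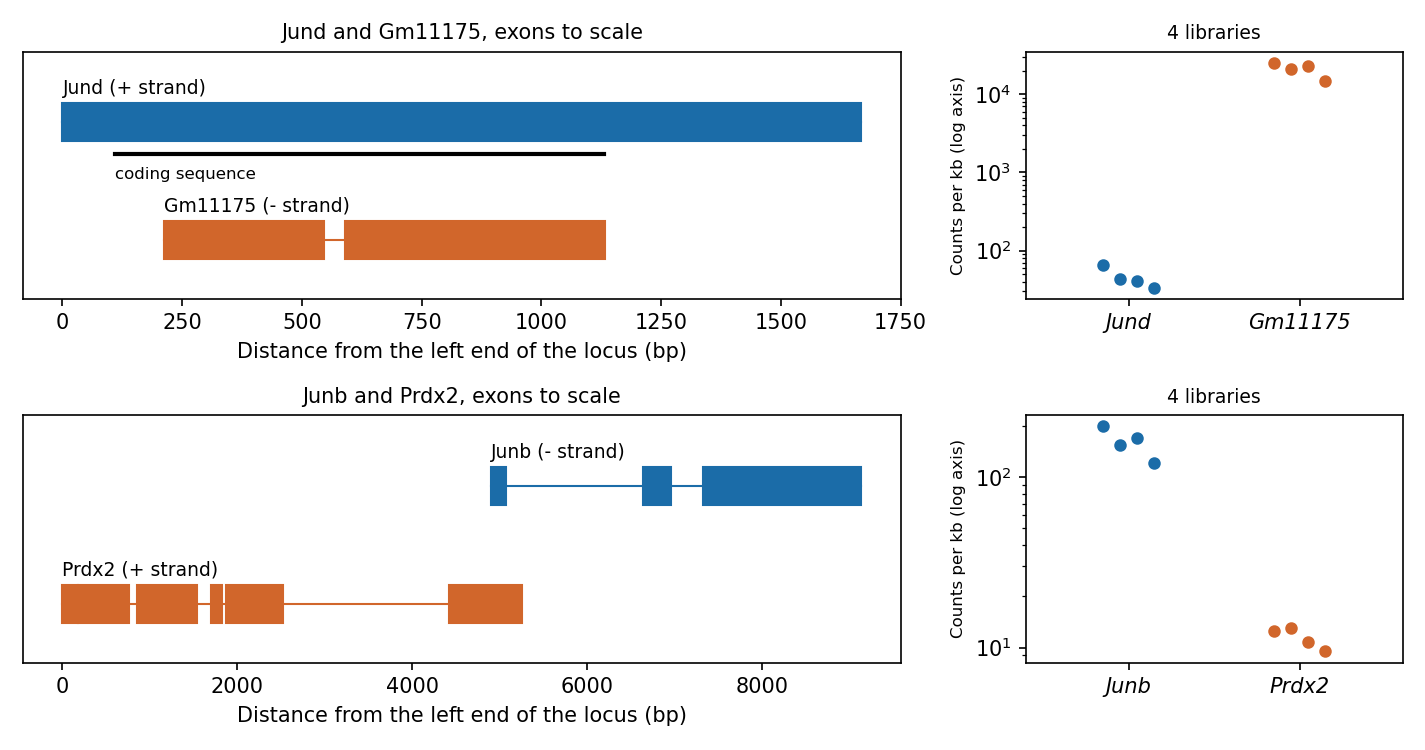
Left, exons of Jund and Gm11175 (top) and of Junb and Prdx2 (bottom) to scale, in bp from the left end of each locus, with a black line under the Jund coding sequence. Right, counts per kb of exon in each of 4 libraries on a log axis. Gm11175 lies wholly within the Jund coding sequence and has 14869 to 25387 counts per kb, against 33.6 to 65.3 for Jund, while Junb is denser than Prdx2.

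Junb encodes JunB, a Jun protein that Th2 cells use at the interleukin-4 gene. Its row covered 2301 bp in 3 exon blocks at chr8:84974484-84978718 (mm10, minus strand). Junb had 456, 355, 390 and 279 counts, or 131, 109, 115 and 108 TPM, in replicates 1 to 4. Its mean of 116 ± 10.8 TPM (SD, n = 4) was the highest of the 9 protein-coding rows, by the strand assignment of the tables. Replicate 1 was the highest, and replicates 2 and 4 were nearly equal per length.

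Prdx2, which encodes a peroxide-reducing enzyme, shares 173 bp with the Junb row at chr8:84974484-84974656, or 7.52% of the Junb exon length. In GENCODE vM21 these bases belong to a noncoding Junb transcript of 2 exons and 492 bp, and 0 bp of the coding transcript of 1809 bp are shared. Junb stood at 198, 154, 169 and 121 counts per kb, against 12.5, 13.1, 10.8 and 9.51 counts per kb for Prdx2, which had 38, 40, 33 and 29 counts. The log2 ratio of Junb over Prdx2 was 3.80 ± 0.217 (SD, n = 4), or 13.9-fold higher for Junb, and was positive in 4 of 4 libraries (p = 0.13, exact two-sided sign-flip test; 0.13 after adjustment over 2 ratios). Both Jun rows with an overlap were thus unequal to the row opposite them, but Jund was the lower of its pair and Junb the higher. Both directions are those of the strand setting used. All 877 bp of Gm11175 lie in Jund, so under the other setting its reads would count for Jund, the higher row then. Junb and Prdx2 share 173 bp alone, so the counts do not give what either would hold under that setting. The direction of that pair and the rank of Junb under it were not tested. How many of the Junb counts lie in the shared bases was not tested, since the tables give 1 count per row.

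Fos encodes the founding Fos protein, which forms AP-1 with Jun proteins and whose mRNA is among the shortest lived. Its row (chr12, 2352 bp) had 2, 4, 2 and 3 counts in replicates 1 to 4. Only replicate 2 passed the limit of 3 counts, so the Fos row was at the limit of detection in these counts. Its TPM averaged 0.867 ± 0.345 (SD, n = 4).

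Fosl2 encodes Fra-2, a Fos family protein without the strong activation domain of Fos. Its row (chr5, 9680 bp) had 18, 11, 9 and 10 counts, all above the limit, and averaged 0.894 ± 0.252 TPM (SD, n = 4). Replicate 1 was the highest. With about the same TPM, Fosl2 passed the limit of detection and Fos did not, and the Fosl2 row is the longer.

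The 3 Egr genes encode zinc finger proteins that bind GC-rich sites. Egr1 (chr18, 4484 bp), the activator of early response promoters, had 23, 21, 22 and 30 counts. In TPM it stood at 3.39, 3.30, 3.33 and 5.94, so replicate 4 was above the other 3, which lay close together. Egr2 (chr10, 3398 bp), which restrains activated T cells, had 22, 20, 12 and 15 counts, or 4.28, 4.14, 2.40 and 3.92 TPM, and replicate 3 was the lowest. Egr3 (chr14, 1416 bp), which acts alongside Egr2, had 15, 9, 6 and 9 counts, or 6.999, 4.48, 2.88 and 5.64 TPM, and replicate 3 was again the lowest. The means were 3.99 ± 1.30 TPM for Egr1, 3.69 ± 0.869 TPM for Egr2 and 5.00 ± 1.75 TPM for Egr3 (SD, n = 4 each).

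Nr4a1 (chr15, 2474 bp) encodes Nur77, an orphan nuclear receptor that limits T cell expansion. It had 9, 11, 9 and 7 counts, or 2.40, 3.13, 2.47 and 2.51 TPM, in replicates 1 to 4, with a mean of 2.63 ± 0.337 TPM (SD, n = 4). Replicate 2 stood above the other 3, by a difference of 2 counts from the next.

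Myc (chr15, 2717 bp) encodes the growth-promoting factor that pairs with Max on E-box sequences. It had 52, 47, 29 and 34 counts, or 12.6, 12.2, 7.25 and 11.1 TPM, with a mean of 10.8 ± 2.45 TPM (SD, n = 4). Replicate 3 was the lowest, and Myc was the highest of the 7 rows without an overlap.

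**Figure D2:**
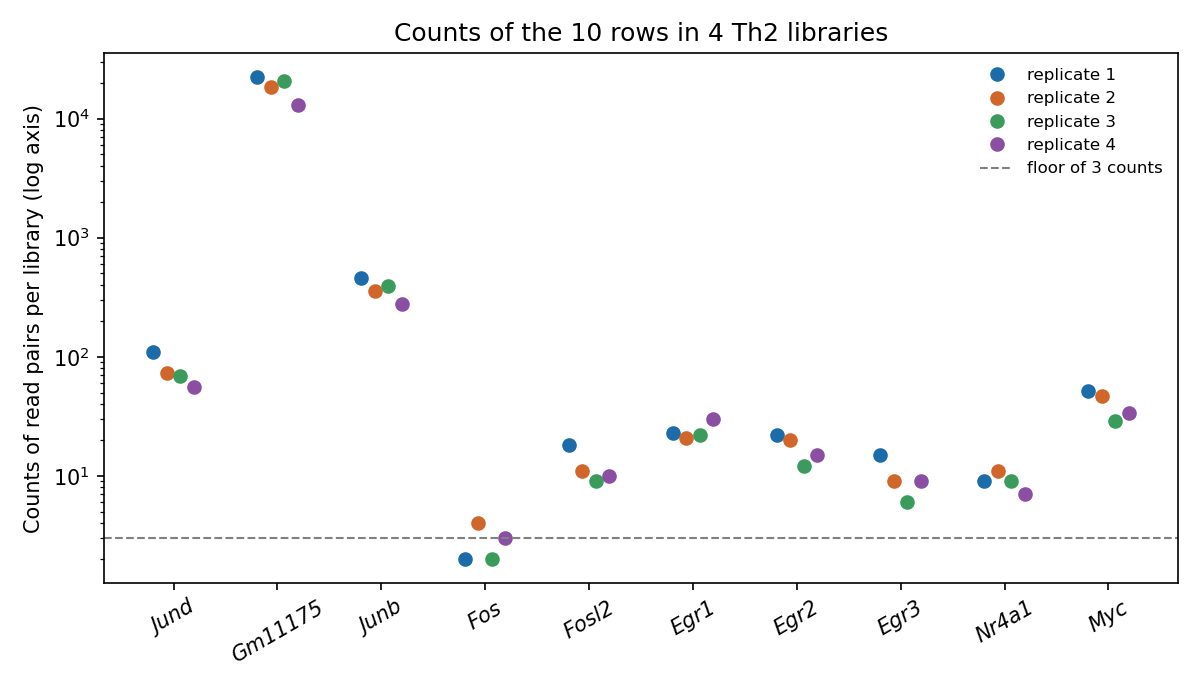
Counts of read pairs in each library (log axis) for the 10 rows, with points coloured by replicate and a dashed line at the floor of 3 counts. Gm11175 stands at 13040 to 22264 counts and Fos at 2 to 4 counts.

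9 of the 10 rows had more than 3 counts in every library, Fos being the exception, and 6 of the 7 rows without an overlap did so. The same rule was met by 14.8% of all rows, by 26.5% of protein-coding genes and by 19.0% of protein-coding genes without an overlap. The members were chosen by name as genes that activated T cells use, with earlier results of these data known. Their share was therefore not tested against these. The 7 rows without an overlap together had 141, 123, 89 and 108 counts and a summed level of 27.9 ± 5.63 TPM (SD, n = 4). Replicate 3 was the lowest in this sum, at 19.6 TPM, against 29.2 to 31.5 TPM in the other replicates. The 8 T cell markers without an overlap were also lowest there, with 138 counts in replicate 3, against 249, 187 and 169 in replicates 1, 2 and 4, and the part of this in the sum was not tested. In the same libraries these 7 rows together had 0.633%, 0.672%, 0.434% and 0.828% of the counts of Gm11175 alone.

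The median of the 7 rows without an overlap was 3.69 TPM, against 2.79 TPM over the 3215 detected protein-coding genes without an overlap and 0.0192 TPM over all 16963 of them. Among those 16963 genes, Myc stood at percentile 97.3 of mean TPM, Egr3 at 94.0, Egr1 at 92.5, Egr2 at 91.9, Nr4a1 at 89.2, Fosl2 at 77.4 and Fos at 77.0. Fos and Fosl2 were thus above most of these genes in rank while near or at the limit in counts, since most of the genes had few or 0 counts.

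By mean TPM the order was Gm11175, Junb, Jund, Myc, Egr3, Egr1, Egr2, Nr4a1, Fosl2 and Fos. Differences between neighbours were taken on the scale of log2(TPM + 1), which understates differences between low rows, and called beyond the spread where all 4 libraries had the same sign and the mean exceeded its SD. 5 of the 9 neighbouring pairs met this. The difference was 7.02 ± 0.076 for Gm11175 over Junb, 1.79 ± 0.171 for Junb over Jund, 1.53 ± 0.265 for Jund over Myc, 1.00 ± 0.224 for Myc over Egr3 and 0.94 ± 0.259 for Nr4a1 over Fosl2 (SD, n = 4). Each of the 5 had p = 0.13 in the exact two-sided sign-flip test, and 0.225 after adjustment over the 9 pairs. The difference between Nr4a1 and Fosl2 depends on the division by exon length: on TMM-normalized CPM, which is not divided by it, Nr4a1 over Fosl2 was -0.32 ± 0.403.

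The other 4 pairs did not differ beyond their spread. Egr3 over Egr1 was 0.25 ± 0.467 (exact p = 0.5), Egr1 over Egr2 was 0.08 ± 0.401 (exact p = 0.75), Egr2 over Nr4a1 was 0.35 ± 0.285 with 3 of 4 libraries positive (exact p = 0.25), and Fosl2 over Fos was 0.03 ± 0.350 (exact p = 0.875). Of rows further apart in the order, 3 pairs were compared after the values were seen. Egr3 over Egr2 was 0.33 ± 0.231, Egr3 over Nr4a1 0.68 ± 0.486 and Egr1 over Nr4a1 0.43 ± 0.392 (SD, n = 4), each positive in 4 of 4 libraries and beyond its spread (exact p = 0.13, and 0.13 after adjustment over the 3 pairs). The 2 differences with Egr3 depend on the division by exon length. In CPM, Egr2 (mean 8.25) was above Egr3 (mean 4.66) in all 4 libraries. Nr4a1 (mean 4.29 CPM) was above Egr3 in replicates 2 and 3. Egr1 (mean 11.7 CPM) stayed above Nr4a1 in all 4 libraries. The order was thus not resolved between Egr3 and Egr1, Egr1 and Egr2, Egr2 and Nr4a1, or Fosl2 and Fos.

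**Figure D3:**
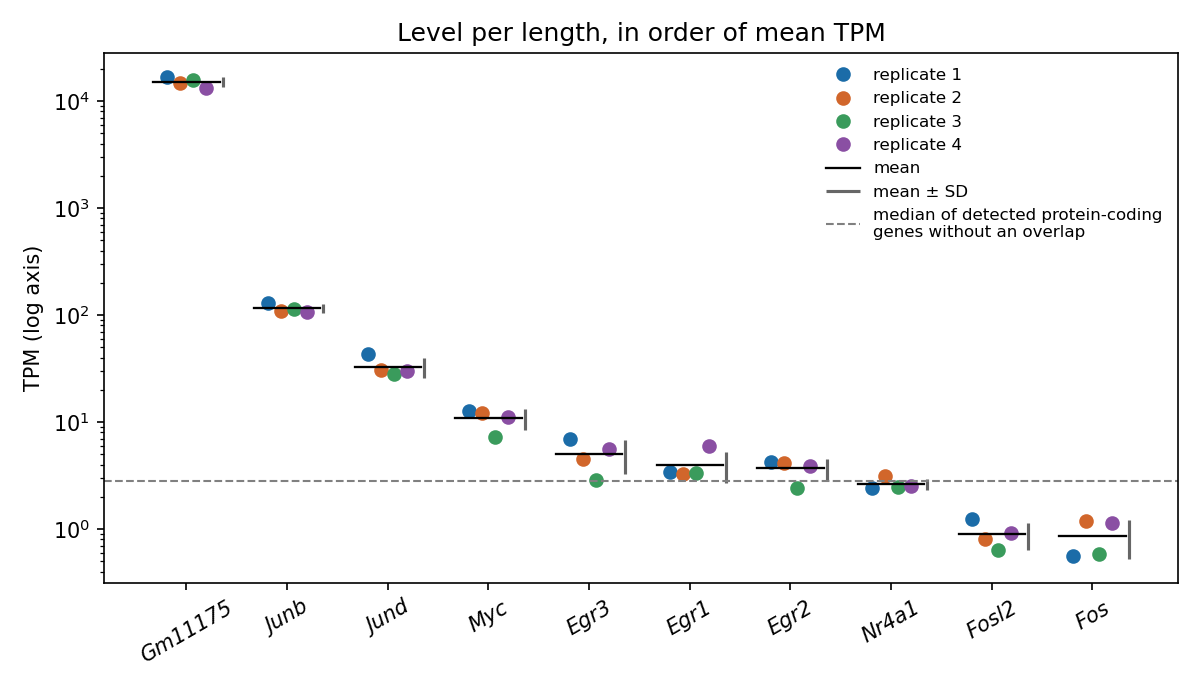
TPM of the 10 rows in order of their mean (log axis), with 1 point per library coloured by replicate, a black line at the mean and a grey bar for the mean ± SD (n = 4). The dashed line is the median of detected protein-coding genes without an overlap, 2.79 TPM, and the Egr rows average 3.69 to 5.00 TPM, Nr4a1 2.63 TPM, and Fosl2 and Fos under 1 TPM.

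No row of the 10 was called variable between replicates. A goodness-of-fit test in edgeR with an intercept alone asked, for each row that passed the count filter, whether its counts varied more than the trend of dispersion allows. It called 23 of 5064 rows (0.454%) at an adjusted p under 0.05, and 260 at an unadjusted p under 0.05. The number called was 12 without replicate 3 and 7 without replicate 4. 6 of the 10 rows were tested (Jund, Gm11175, Junb, Egr1, Egr2 and Myc). Of these 0 were called, and 0 had an unadjusted p under 0.05. The lowest unadjusted p was 0.222 for Egr1, and the edgeR adjusted p was 0.9999 for each. Fos, Fosl2, Egr3 and Nr4a1 had too few counts for the filter and were not tested.

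Against counting error alone, taken as a chi-square of the counts per degree of freedom with totals as exposure, the low rows lay near or below 2: Nr4a1 at 0.183, Fos at 0.442, Fosl2 at 1.02, Egr2 at 1.02, Egr3 at 1.25 and Egr1 at 1.88. Myc stood at 2.26, Jund at 3.76, Junb at 4.18 and Gm11175 at 258, where a value near 1 is what counting error gives. The value for Gm11175 arises at 13040 to 22264 counts, where counting error is small, and its coefficient of variation in TPM was 10.2%, against 39.7% for Fos. For Nr4a1, Fos, Fosl2, Egr2 and Egr3, replicate differences were thus not resolved from counting error at these counts. Egr1 and Myc lay somewhat above 1, but no p-value was taken for them, so their replicate differences were not called resolved either.

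Other genes of the same pathways were read by the rule of more than 3 counts in every library, which 26.5% of all protein-coding genes met. Of 13 other AP-1 genes (Jun, Fos, Batf, Atf and small Maf genes) 6 were detected. Maff, a small Maf protein that lacks an activation domain, had 127, 114, 126 and 103 counts. Batf, which pairs with Jun proteins and Irf4 in helper T cells, had 38, 39, 36 and 33 counts and averaged 27.8 ± 2.32 TPM (SD, n = 4). Fosl1, which encodes Fra-1, had 32, 26, 25 and 16 counts. These 3 have no overlap and stood above Fos and Fosl2 in TPM in every library. Jun, named here after its values were seen, had 1, 4, 5 and 3 counts, against 101, 74, 95 and 81 for Junos, the antisense row that shares 232 bp with it. Fosb, also named afterwards, was at 0 in all 4 libraries.

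Of 5 relatives of Egr and Nr4a, Nab1 and Nab2 were detected. Nab2, a corepressor that binds Egr proteins and that Egr1 induces, had 223, 219, 250 and 239 counts, against 5881, 5470, 5890 and 3927 for Gm16229, an antisense row that shares 1050 bp with it. Nab1, the related corepressor, had 7, 7, 9 and 10 counts and no overlap. Nr4a2 had 1, 1, 0 and 1 counts, Nr4a3 had 3, 1, 6 and 3, and Egr4 was at 0 in all libraries. These last 3 were named after their values were seen, and Nr4a1 was the only 1 of the 3 Nr4a genes above 3 counts in every library.

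Of 11 genes of the Myc network 6 were detected, 4 of them with an overlap. Max, the partner of Myc, has no overlap and had 25, 21, 8 and 11 counts. Mxd3, which pairs with Max and represses, had 2410, 2256, 2465 and 2020 counts, against 73, 64, 51 and 53 for Prelid1, a mitochondrial lipid transfer gene that shares 104 bp with it. Mycn and Mycl, named after their values were seen, were at 0 in all libraries. Myc was thus the only 1 of the 3 Myc family genes with counts.

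Of 26 genes for signalling to these factors 16 were detected. Nfkb1, an NF-kappaB subunit, had 96, 76, 62 and 80 counts, Nfatc1, the NFAT member induced by stimulation, had 35, 24, 36 and 18, and Srf, which binds immediate early promoters, had 16, 17, 14 and 18.

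Of 21 other immediate early and feedback genes 13 were detected. Ier2, an early response gene, had 58, 36, 49 and 38 counts. Dusp2, a phosphatase of MAP kinases, had 53, 51, 39 and 34 counts, and Dusp4 and Dusp6 of the same family had 27, 16, 18 and 17 and 12, 6, 7 and 9. Klf6 had 30, 21, 10 and 12 counts. Dusp1, named after its values were seen, had 1, 1, 2 and 0 counts, and did not pass 3 counts in any library.

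Of 19 genes known as targets of these factors in T cells 16 were detected, 13 of 15 without an overlap. Il2, the growth cytokine gene with AP-1 and NFAT sites, had 158, 133, 71 and 112 counts and averaged 75.5 ± 22.6 TPM (SD, n = 4). Il2ra, a chain of its receptor, had 179, 139, 108 and 121 counts. Il4, the Th2 cytokine gene, had 38, 27, 37 and 24 counts, and Tfrc, the transferrin receptor gene, had 104, 100, 36 and 72. Odc1, a Myc target for polyamine synthesis, had 51, 69, 29 and 28 counts. Cdk4, another Myc target, had 3143, 2826, 2980 and 2198 counts, against 104, 98, 107 and 97 for Tspan31, which shares 641 bp with it. In TPM, replicate 3 was the lowest for Il2, Il2ra, Tfrc and Odc1, as it was for Myc, Egr2 and Egr3. Replicate 2 was the lowest for Il4 and replicate 4 for Cdk4. The T cell markers without an overlap were also lowest in replicate 3, and a link between the targets and the factors was not tested.

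Over the 6 lists 59 of 95 genes were detected, 44 of 73 without an overlap and 15 of 22 with one. Over all protein-coding genes the shares were 26.5%, 19.0% without an overlap and 53.4% with one. The lists were chosen by name, with earlier results of these data known, so their shares were not tested against these. The median was 1.66 TPM over the 95 genes and 1.54 TPM over the 73, against 3.69 TPM over the 7 rows described above that have no overlap. By list the median without an overlap ran from 0.266 TPM for the Egr and Nr4a relatives to 9.20 TPM for the targets.

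**Figure D4:**
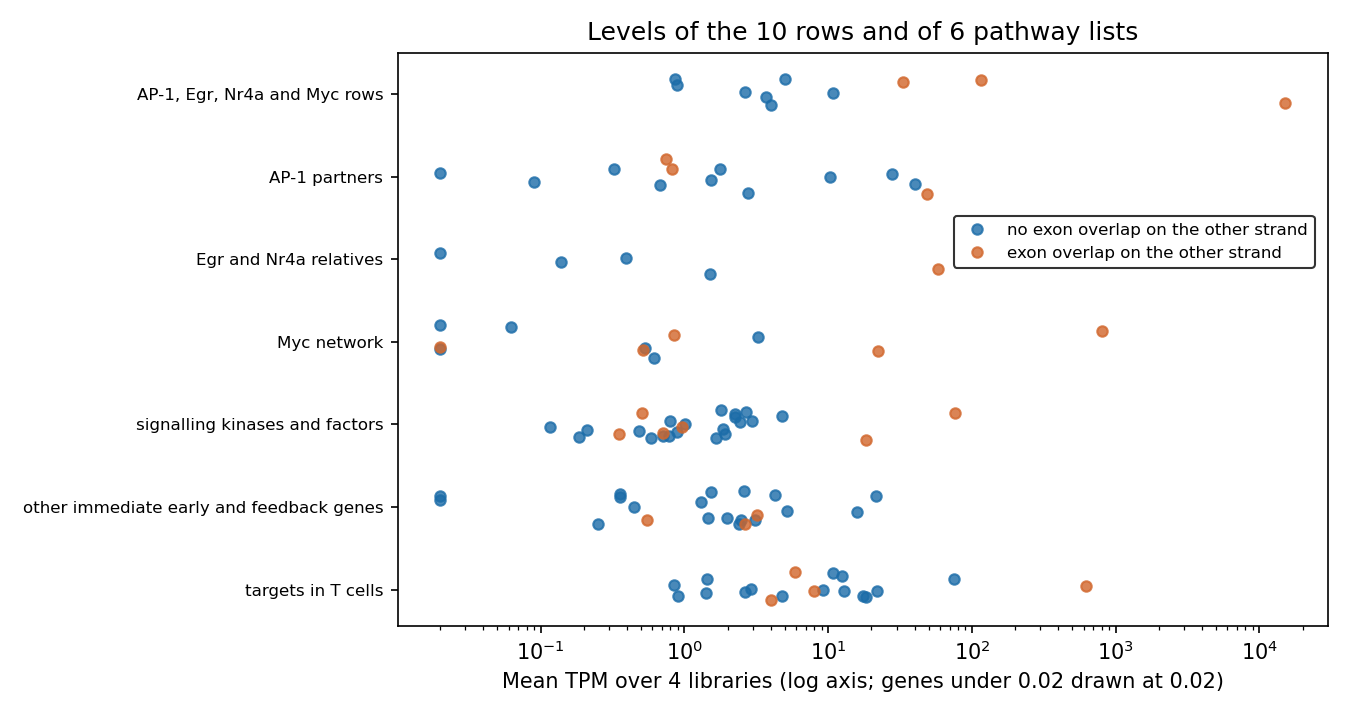
Mean TPM over 4 libraries (log axis, values under 0.02 drawn at 0.02) for the 10 rows and for the genes of 6 pathway lists, 1 point per gene, orange where an exon overlaps a gene on the other strand and blue where none does. The points highest in TPM are Gm11175, Mxd3 and Cdk4, all with an overlap, while Il2, at 75.5 TPM, has none.

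Of the 10 rows, Gm11175 and Junb averaged at least 100 counts, and for these the 3 protein-coding genes outside the lists with the most similar values were found, by Euclidean distance in log2(CPM + 1) over the 4 libraries. Nearest to Gm11175 were Tlcd1 at a distance of 0.311, Fam57b at 1.04 and Pde6h at 1.20, which lie opposite Rpl23a, Aldoa and Arhgdib. Tlcd1 had 24225, 21054, 22364 and 14537 counts. Nearest to Junb were Spef1 at 0.126, Ccdc84 at 0.156 and Mrpl19 at 0.161, which lie opposite Gm14232, Rps25 and Gcfc2. All 6 overlap a gene on the other strand, as Gm11175 and Junb do. Over all protein-coding genes 4801 of 21764 have such an overlap, and the share among genes of like count was not taken. The distance measures the level as well as its course over libraries that share their totals.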

How the data were processed

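RNA of Th2 cells was read from 4 libraries of 1 group. The deposited tables hold raw counts of read pairs per gene, made, per the file headers, by featureCounts 1.4.6-p4 from exons of GENCODE vM13 on mm10, with strand setting 1 and only pairs whose ends both mapped. The input's name points to STAR, and its version is not given in the sources used here. By contrast with the name of the linked library protocol, which reads polyadenylated RNA, the assay label reads total RNA. The deposited tables also give exon length in bp.

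Members and lists were chosen with earlier results of these data known. GENCODE vM21, on the same build, gave names, types, coding sequence and the printed bases, with IDs matched without version (224 of 50600 unmatched). Counts and lengths gave TPM, and exon overlaps were found with bedtools 2.31.1. The goodness-of-fit test of replicate variation used edgeR 4.0.16 (R 4.3.3) with TMM factors, trended dispersion, filterByExpr and Benjamini-Hochberg adjustment at 0.05, after a check on simulated data. Log2 ratios per kb used a floor of 3 counts and exact sign flips. The named genes are the members, the rows opposite them, the list genes with more than 3 counts in every library, and the 3 genes nearest to a member with a mean of at least 100 counts. The list genes printed are examples of these, picked for their roles. Il5, Cd247, Cd4, Trbc1 and the rows opposite list genes were named after their values were seen. So were list genes under the limit (Jun, Fosb, Egr4, Nr4a2, Nr4a3, Mycn, Mycl and Dusp1). Alternatives were DESeq2 1.42.0 size factors, a common dispersion, other filters, detection thresholds, pseudocounts (0.1 and 0.5), TMM-normalized CPM, raw counts, and leaving out each replicate. Removal of the ribosomal RNA rows was added after seeing the data. Some genes of the signalling list are not reported here.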

Additional observations from a re-analysis of the deposited data

Results flagged for a closer look

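In 2 of the 12 sets of 4 values checked (the TPM of the 10 rows and 2 log2 ratios), 1 library stood far from the other 3, with a gap to the nearest value, divided by the whole range, above Dixon's 95% critical value for 4 values. Chance flags about 1 in 20 such sets. For Egr1 this share was 0.965: replicate 4 stood at 5.94 TPM, against 3.39, 3.30 and 3.33 TPM in replicates 1 to 3, or 30 counts against 23, 21 and 22. Replicate 4 is also the library with 15.9% of its counts in CT010467.1, and the part of this in the Egr1 value was not tested. For Nr4a1 the share was 0.852: replicate 2 stood at 3.13 TPM, against 2.40, 2.47 and 2.51 TPM in replicates 1, 3 and 4, from 7 to 11 counts in all. Dixon's ratio takes no account of counting error. Against that error the chi-square per degree of freedom was 0.183 for Nr4a1 and 1.88 for Egr1, so neither flag was shown to go beyond it.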

How the results depend on the processing

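The number of rows called variable between replicates, 23, was 15 without the count filter, and ranged from 7 to 20 when 1 replicate was left out (7 without replicate 4, 12 without replicate 3, 16 without replicate 2 and 20 without replicate 1); the cause was not tested. It was 23 with DESeq2 size factors, 32 with a common dispersion and 22 without the ribosomal RNA rows. The 9 rows detected became 10 at more than 0 counts, 6 at 10 or more counts and 8 at 1 TPM or more in every library. The log2 ratio of Jund over Gm11175 ranged from -8.94 to -7.93 and that of Junb over Prdx2 from 3.39 to 3.88. Over all alternatives, 5 values of the differences between neighbours changed sign, and Egr1 over Egr2 gave more than 1 of these values. On TMM-normalized CPM, which is not divided by length, Egr3 over Egr1 was -1.18 and Nr4a1 over Fosl2 -0.32. When 1 replicate was left out, Egr1 over Egr2 ranged from -0.058 to 0.20 (-0.0097 without replicate 3 and -0.058 without replicate 4), and Fosl2 over Fos from -0.13 to 0.14 (-0.13 without replicate 1). Egr2 over Nr4a1 went beyond its spread on TMM-normalized CPM (0.78) and without replicate 3 (0.48), as did Fosl2 over Fos on TMM-normalized CPM (1.51). The level of each of the 10 rows moved by less than 1 SD with DESeq2 size factors and without the ribosomal RNA rows. Leaving out 1 of 4 replicates cannot move a mean by 1 SD, so nothing was concluded from those alternatives for the levels. With 2 to 30 counts in most libraries, differences among the Egr, Nr4a1 and Fos family rows are limited by the low counts, whose cause was not tested.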
